A study of Arabidopsis thaliana with 4 samples.

Results

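The MYB genes examined here were the protein-coding nuclear genes of Arabidopsis thaliana whose symbol is MYB followed by a number, 115 of 27432 protein-coding genes on the 5 nuclear chromosomes. Membership rests on the symbol and not on a peak, though the family was picked with earlier results of these data known. Binding of SHORT LIFE (SHL) had been mapped by chromatin immunoprecipitation and sequencing (ChIP-seq) in whole Col-0 seedlings about 10 days old, which grew on half-strength MS plates in long days (16 h light, 8 h dark). All plants were ebs shl mutants that carried HA-tagged SHL driven by the native SHL promoter, and chromatin bound to the fusion was pulled down with anti-HA. There were 2 ChIP samples, each with its own peak list, and 2 input samples of the same line without antibody, which are not analysed here. Nothing in the labels says that the replicates were separate cultures, and whole seedlings mix all their cell types.

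MYB proteins are a large family of plant transcription factors, most of which carry a pair of MYB repeats (R2R3) that bind DNA. They control flavonoid and glucosinolate synthesis, the cuticle, suberin and the secondary wall, trichomes and root hairs, meristems, stamens, gametophytes and responses to stress, and many are active in few cells or at few times. SHL joins a BAH domain, which reads the repressive mark H3K27me3, to a PHD finger, which reads the active mark H3K4me3, and these plants also carried a mutation in EBS, its close relative.

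List 1 held 3668 nuclear peaks and list 2 held 3487, each with a score from the authors' peak caller. Scores are used within a list only, and read depth is unknown. A gene was counted as hit in a list when at least 1 bp of a peak lay on its body or within 1 kb of either end. Of the 115 MYB genes, 10 were hit in both lists, 10 in list 1 only, 15 in list 2 only and 80 in neither. The genes hit in both lists made up 8.70% of the family (exact 95% interval 4.25 to 15.4), and the background over all protein-coding genes was 8.66%. The share of MYB genes hit in both lists was thus near that of all genes. Counted for each list by itself, 17.4% of MYB genes were hit in list 1, beside 14.75% of all genes. In list 2 it was 21.7% of MYB genes, beside 14.4%. Genes hit in one list only made up 21.7% of the family (exact 95% interval 14.6 to 30.4), beside 11.8% of all protein-coding genes. By list, 8.70% of MYB genes were hit in list 1 only, beside 6.09% of all genes, and 13.04% in list 2 only (exact 95% interval 7.49 to 20.6), beside 5.75%. The intervals cover counting error only. No test of these differences was made, and the shares are a description of these lists.

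**Figure D1:**
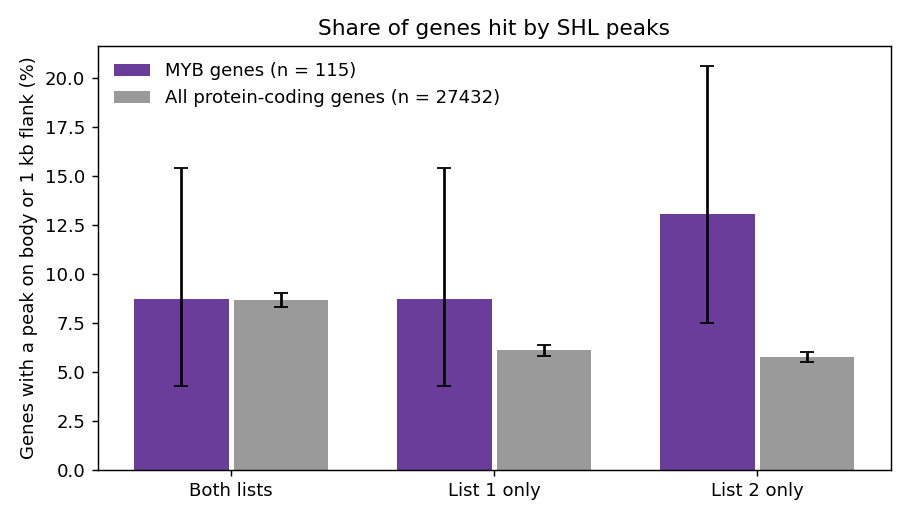
Percent of genes with a peak on the body or 1 kb flank (vertical axis) in both lists, in list 1 only and in list 2 only, for 115 MYB genes (purple) and all 27432 protein-coding genes (grey). Error bars are exact 95% intervals; the share hit in both lists is 8.70% beside 8.66%, and the share hit in list 2 only is 13.04% beside 5.75%.

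Gene length differed between the family and the background. The median body was 1763 bp long for MYB genes and 2078 bp for all protein-coding genes. Among the 5033 protein-coding genes whose length lay within the interquartile range of MYB genes, 9.72% were hit in both lists and 12.6% in one list only. The MYB genes hit in both lists had a median length of 1878 bp and those hit in neither had 1739 bp. With the body alone, 8 MYB genes were hit in both lists, and the background was 5.85%.

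Peaks on MYB genes had low scores. List 1 placed 26 peaks on them with a median score of 25.3, while the 2876 peaks of that list on all protein-coding bodies and flanks had a median of 33.8. List 2 placed 30 peaks on them with a median of 25.7, against 34.3 for its 2730 such peaks. Scores under 50 made up 92.3% of the MYB peaks in list 1, where they made up 68.2% of all genic peaks. In list 2 the shares were 96.7% and 66.7%. The MYB peaks had a median width of 928.5 bp in list 1 (1108.5 bp for all genic peaks) and 1151 bp in list 2 (1264 bp). These differences in width were not tested. The lowest scores that the lists hold at all are 20.01 in list 1 and 20 in list 2. Only MYB102 was hit by a peak that scored at least 100.

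Hits in both lists were also counted among the genes hit at all. Of the 35 MYB genes hit at all, 10 were hit in both lists (28.6%, exact 95% interval 14.6 to 46.3). Over all protein-coding genes it was 2375 of 5622 (42.2%). Among genes whose every peak scored under 50, it was 8 of 33 MYB genes (24.2%, interval 11.1 to 42.3) and 828 of 3789 of all genes (21.9%). The limit of 50 applies to the best peak of either list, so it also depends on how many lists hit a gene. The median best score was 38.4 in list 1 and 27.5 in list 2 for the genes hit in both. It was 24.4 for the genes hit in list 1 only and 26.2 for those hit in list 2 only.

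**Figure D2:**
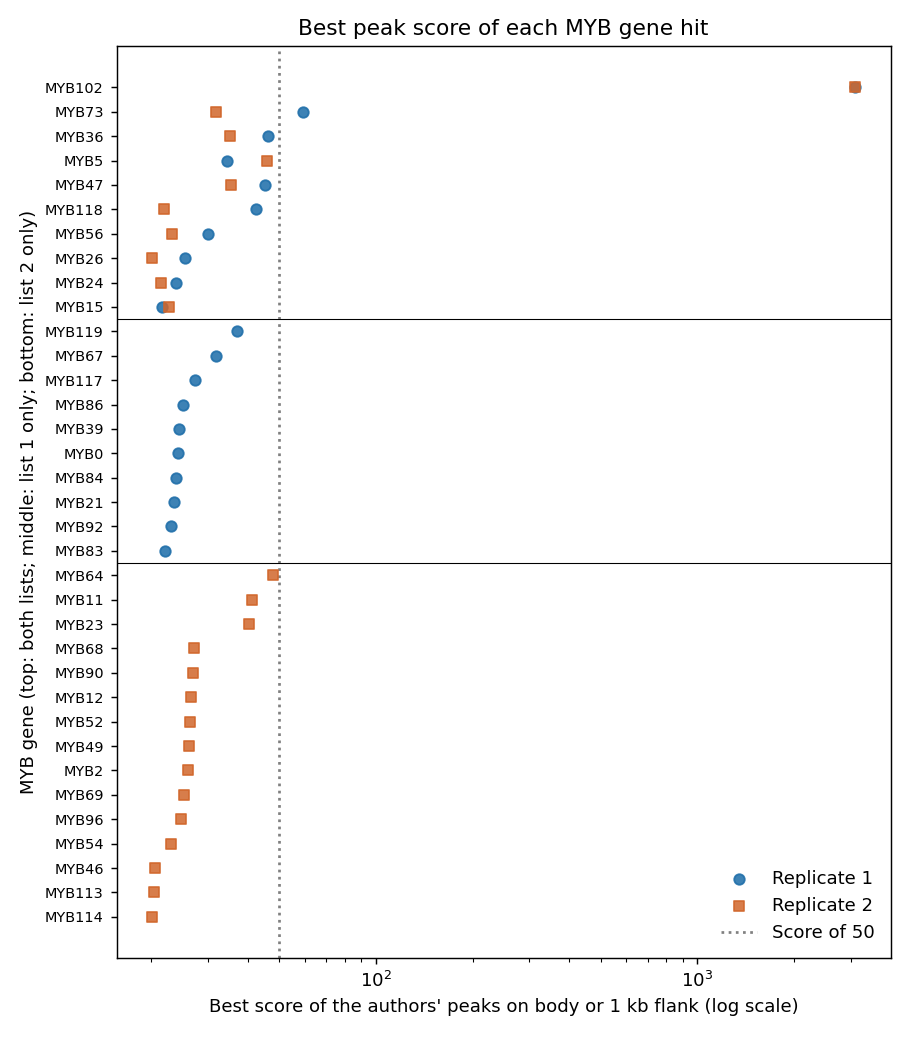
Best peak score (horizontal axis, log scale, no unit) of each of the 35 MYB genes hit, with replicate 1 as blue circles and replicate 2 as orange squares; horizontal lines divide genes hit in both lists, in list 1 only and in list 2 only. Apart from MYB102 at 3100 and MYB73 at 59.49 in replicate 1, all points lie below the dotted line at 50.

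The genes hit in both lists included regulators of roots, seeds and embryos, stamens and stress responses. None of the 25 subgroups or functional classes used here to order the family held more than 1 of them. MYB5 and MYB47 have no class, however, and the stamen genes MYB26 and MYB24 stand in separate classes. With small classes and a background of 8.66%, this is not read as a trait of these genes. In 9 of the 10, a peak of list 1 overlapped a peak of list 2 on the gene or its flank, and this held for 2215 of the 2375 protein-coding genes hit in both lists (93.3%). As a share of all genes, overlapping peaks were on 7.83% of the 115 MYB genes, and the background was 8.07%. Positions below are in the TAIR10 build, and a peak is given by its chromosome, start and end. The gene table gave no strand and no exons, so a peak is placed by the lower-coordinate or higher-coordinate end of the body.

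Root regulators gave MYB36 and MYB56. MYB36 (AT5G57620), which drives differentiation of the endodermis and its Casparian strip, had a pair of peaks in each list. The peaks on the body spanned chromosome 5, 23335416 to 23336981, with a score of 38.22 in replicate 1, and 23334795 to 23336652 with 22.97 in replicate 2. They shared 1237 bp, and the replicate 2 peak covered 98.5% of the body. The other pair lay beyond the higher-coordinate end at 23337471 to 23338501 (46.23) and 23337082 to 23338726 (35.13), and their midpoints fell on the neighbouring gene AT5G57625. The MYB36 body was therefore hit in both replicates apart from the neighbour's peaks.

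MYB56 (AT5G17800), also known as BRAVO, holds back cell division in the quiescent centre of the root. Its body carried peaks at chromosome 5, 5877753 to 5878642 (30.15 in replicate 1) and 5877097 to 5878104 (23.10 in replicate 2), which shared only 352 bp. Each list had a further peak on a flank, and they lay on opposite sides of the gene. The replicate 1 flank peak scored 21.38, and the replicate 2 flank peak scored 23.20 with its midpoint on WOX12, a homeobox gene of root founder cells.

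Seed and embryo regulators gave MYB5 and MYB118. MYB5 (AT3G13540), a regulator of the outer seed coat and of trichomes, was hit at chromosome 3, 4419815 to 4420652, with a score of 34.51 in replicate 1. In replicate 2 a peak of 45.72 at 4419878 to 4422451 covered 100% of its body. In the gene table the whole body of MYB5 lies within that of MAPKKK7, so these peaks cannot be given to MYB5 alone. MYB118 (AT3G27785), a regulator of embryo and endosperm maturation, carried a peak of 42.34 at chromosome 3, 10289418 to 10290984, in replicate 1. The replicate 2 peak at 10289931 to 10290656 scored 21.92 and lay wholly within it. Replicate 1 also had a peak of 22.19 at the lower-coordinate end of MYB118.

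Stamen regulators gave MYB26 and MYB24. MYB26 (AT3G13890), needed for the wall thickening that opens anthers, had peaks at chromosome 3, 4576640 to 4577785 (25.52 in replicate 1) and 4575911 to 4577478 (20.08 in replicate 2), which shared 839 bp. The replicate 2 score lay at percentile 0.574 of its list. MYB24 (AT5G40350), which acts in stamen maturation with MYB21 and MYB57, was the exception among the 10 genes, since its peaks did not overlap. Replicate 1 had a peak of 23.88 at chromosome 5, 16141763 to 16142502, 628 bp beyond the higher-coordinate end, and replicate 2 had one of 21.53 on the body at 16139108 to 16140054. The body of MYB24 lies within that of AT5G40348, a long non-coding RNA gene.

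Genes of stress responses gave MYB73, MYB15 and MYB102. MYB73 (AT4G37260), a close relative of MYB44 that acts in salt stress, had a peak of 59.49 over 100% of its body at chromosome 4, 17540260 to 17541891, in replicate 1. The replicate 2 peak at 17540377 to 17541560 scored 31.74 and lay within it. MYB15 (AT3G23250), a regulator of cold responses and of lignin in defence, had peaks of 21.69 and 22.65 that shared 789 bp of chromosome 3, 8309944 to 8310732. MYB47 (AT1G18710), which is not placed in a class here, had peaks that nearly coincided, at chromosome 1, 6451963 to 6453329 (32.94 in replicate 1) and 6451951 to 6453322 (35.53 in replicate 2). Its higher-scoring peak of replicate 1, 45.23 at 6450206 to 6451476, was listed in that replicate alone.

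MYB102 (AT4G21440), which responds to osmotic stress and wounding, stood apart by score. A peak of 3100 was listed in each replicate, at chromosome 4, 11415914 to 11417897 in replicate 1 and 11415638 to 11418033 in replicate 2. Both ended short of the MYB102 body, by 301 bp and 165 bp, and had their midpoints on a transcribed pseudogene, AT4G21437. A score of exactly 3100 was shared by 225 nuclear peaks of list 1 and 195 of list 2, so it is not read as a rank. On the body itself replicate 1 listed no peak, while replicate 2 listed one of 45.35 at 11418407 to 11420109. The hit of MYB102 in both lists thus rested on the flank.

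**Figure D3:**
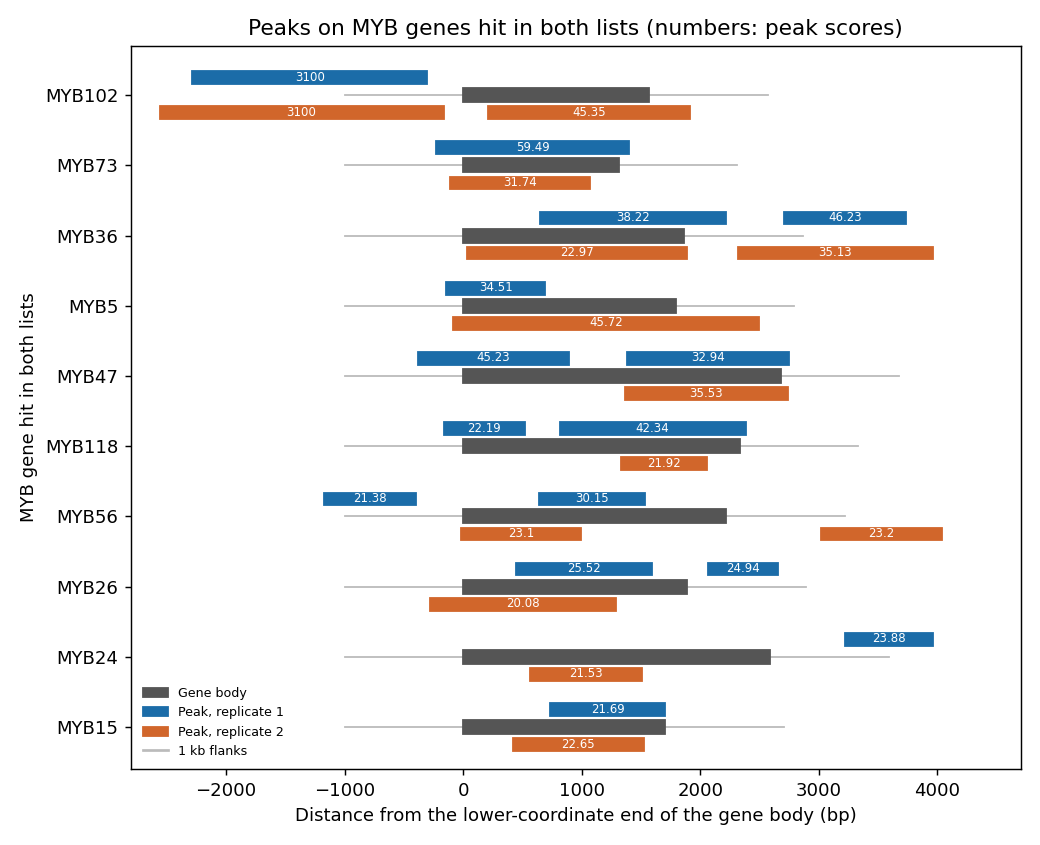
Peaks on the 10 MYB genes hit in both lists, drawn to scale in bp from the lower-coordinate end of each gene body (horizontal axis), with the body in dark grey, the 1 kb flanks as a grey line, and peaks of replicate 1 in blue and replicate 2 in orange with their scores. The peaks of 3100 lie outside the MYB102 body, and the MYB24 peaks do not overlap.

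Over all MYB genes, 47 of the 56 pairs of a peak and a gene had the peak on the body, and 42 had its midpoint there. The peak covered 8.18% to 100% of the body, with a median of 46.5%. Another protein-coding body was touched in 10 of the 56 pairs. More than 1 peak of the same list fell on 9 genes. The same counts over all protein-coding genes are not given here, so nothing is read from these placements. By chromosome, 7 of 25 MYB genes were hit at all on chromosome 1, 2 of 11 on chromosome 2 and 10 of 28 on chromosome 3. On chromosome 4 it was 4 of 16, and on chromosome 5 it was 12 of 35. The share hit at all was 30.4% for the family and 20.5% for all protein-coding genes. Shares of all genes by chromosome are not given here, so nothing is read from these counts.

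Among the genes hit in list 1 only, the highest score was 36.96 on MYB119 (AT5G58850), where the peak at chromosome 5, 23763641 to 23765666, covered 100% of the body. Among those hit in list 2 only, the highest was 48.03 on MYB64 (AT5G11050), where the peak at chromosome 5, 3501932 to 3504184, also covered 100%. MYB64 and MYB119 act together in the cellularization of the female gametophyte. Each was thus covered end to end, but in a different list, and the nearest peak of the other list was 6299 bp from MYB64 and 24278 bp from MYB119.

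The next scores in list 1 were 31.77 on MYB67 (AT3G12720), 27.31 on MYB117 (AT1G26780), which sets organ boundaries, 25.05 on MYB86 (AT5G26660) and 24.49 on MYB39 (AT4G17785), which promotes suberin. In list 2 they were 41.25 on MYB11 (AT3G62610), an activator of flavonol genes, 40.44 on MYB23 (AT5G40330), which promotes trichome fate, 27.17 on MYB68 (AT5G65790), which acts in root growth, and 26.98 on MYB90 (AT1G66390), an activator of anthocyanin genes. The midpoint of the MYB11 peak also fell on an overlapping gene, AT3G62615. In each list these values lay within the range of best scores of the genes hit in both. Those ranges ran from 21.69 (list 1) and 20.08 (list 2), near the lowest scores of the lists, up to the MYB102 flank peaks. Lying within them therefore says little. Apart from MYB102, the highest best score of genes hit in both was 59.49 on MYB73 in list 1, above that of MYB119. In list 2 it was 45.72 on MYB5, below the 48.03 of MYB64. Of the 25 genes hit in one list only, 4 had a peak of the other list within 5 kb (16%, exact 95% interval 4.54 to 36.1), beside 964 of 3247 such genes among all protein-coding genes (29.7%). Of these 4, the neighbours MYB114 and MYB90 were near the same list 1 peak, so they do not count independently.

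Some related genes were hit in different lists, and the examples here were chosen after their values were seen. MYB46 and MYB83, the master switches of the secondary wall, scored 20.55 in list 2 only and 22.13 in list 1 only. MYB0 (GL1), which starts trichomes, scored 24.25 in list 1 only, and its relative MYB23 was hit in list 2 only. MYB21 scored 23.60 in list 1 only, beside MYB24 in both. MYB52 and MYB54, which act in the secondary wall, were both hit in list 2 only, at 26.39 and 23.02.

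**Figure D4:**
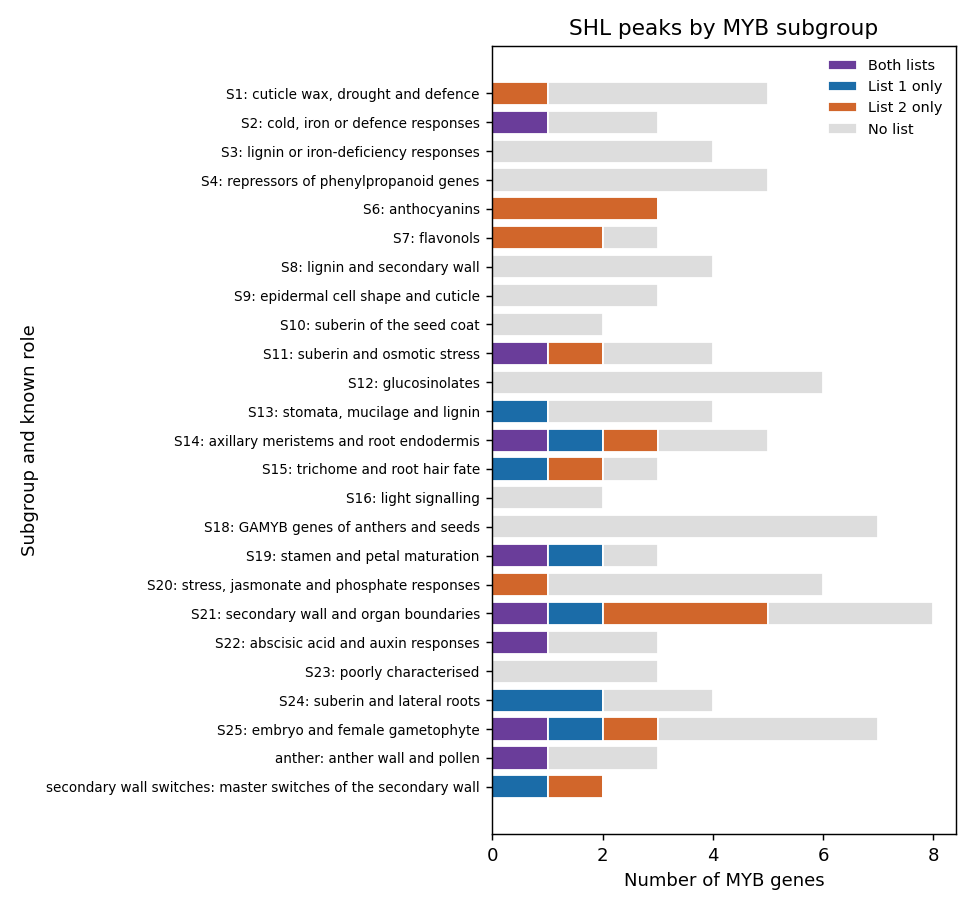
Number of MYB genes (horizontal axis) in each subgroup or functional class with its known role, hit in both lists (purple), list 1 only (blue), list 2 only (orange) or neither (light grey). No class has more than 1 gene hit in both lists; the 3 anthocyanin genes of S6 were hit in list 2 only, and none of the 6 glucosinolate genes of S12 was hit.

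By subgroup, S21, which includes secondary wall and organ boundary regulators, had 5 of 8 genes hit, with 1 in both lists, 1 in list 1 only and 3 in list 2 only. Subgroup S14, of axillary meristem and endodermis regulators, had 3 of 5 hit, and S25, of embryo and female gametophyte regulators, had 3 of 7. Each of these 2 subgroups had 1 gene in both lists, 1 in list 1 only and 1 in list 2 only. Beside these counts, 30.4% of the family and 20.5% of all protein-coding genes were hit in at least one list. The classes are small, and their counts were not tested and are not read as a difference. No gene was hit in 9 classes. Among them were the 7 GAMYB genes of S18, which act in anthers and seeds, the 6 glucosinolate regulators of S12 (MYB28, MYB29, MYB34, MYB51, MYB76 and MYB122), and the 5 repressors of phenylpropanoid genes in S4 (MYB3, MYB4, MYB6, MYB7 and MYB32). With 79.5% of all protein-coding genes hit in neither list, classes of this size without a hit are not read as a difference. A further 13 MYB genes were not placed in a class, and 2 of them, MYB47 and MYB5, were hit in both lists.

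All hits among the anthocyanin (S6) and flavonol (S7) regulators came from list 2. They were 3 of 3 genes in S6 and 2 of 3 in S7. Beside them, 13.04% of the family and 5.75% of all protein-coding genes were hit in list 2 only. These classes are small, and their counts were not tested and are not read as a difference. MYB113, MYB114 and MYB90, activators of anthocyanin synthesis, lie in a row on chromosome 1, separated by 2536 bp and 4987 bp. Along this row list 2 had a peak of 20.38 at 24752100 to 24752963, one of 20.13 at 24758264 to 24759174, one of 26.98 at 24763110 to 24764071 and one of 24.87 at 24765276 to 24766393. The first lay on the neighbouring gene AT1G66360, 625 bp from MYB113, and covered none of the MYB113 body, the second covered 41.7% of MYB114, and the last pair flanked MYB90 and covered 8.18% and 16.6% of its body. List 1 had 1 peak in the row, of 30.40 at 24761010 to 24761936, between MYB114 and MYB90 and 2056 bp and 2004 bp from them. No peak of one list overlapped a peak of the other there. These genes are similar tandem copies, how reads from similar sequence were placed is not given in the sources used here, and its part in these peaks was not tested. The flavonol regulators MYB11 and MYB12 were hit in list 2 only, at 41.25 and 26.67, and MYB111 in neither. The nearest list 1 peak was 10224 bp from MYB11 and 2039 bp from MYB12. The row and MYB12 were singled out after their values were seen.

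**Figure D5:**
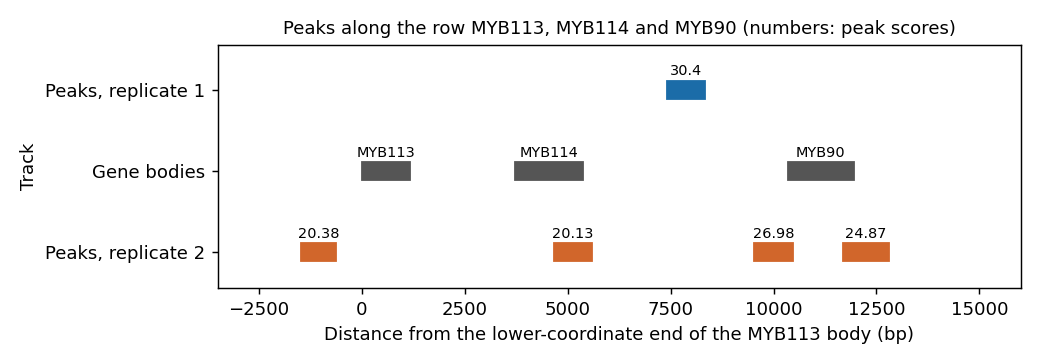
Peaks of replicate 1 (blue) and replicate 2 (orange), with scores, along the row of anthocyanin regulators MYB113, MYB114 and MYB90 (grey bodies), in bp from the lower-coordinate end of MYB113. Replicate 2 has 4 peaks and replicate 1 has 1, and they do not overlap.

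The 1 kb limit left some genes just outside. MYB113, at 625 bp from its peak, was hit by a flank alone. MYB79 had its nearest peak at 1028 bp in list 1 and MYB305 at 1070 bp in list 2, and neither was counted. In all, 15 of the 80 genes without a hit had a peak of either list within 2 kb (18.75%, exact 95% interval 10.9 to 29.0). Over all protein-coding genes it was 1516 of 21810 (6.95%), and the difference was not tested.

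A further 10 genes of the family stand in the table under another symbol, with MYB and a number as a synonym. Of these, MYBR1 (AT5G67300, MYB44), which acts in abscisic acid signalling, was hit in both lists, at 27.45 in replicate 1 and 39.17 in replicate 2. The replicate 2 midpoint also fell on CYP81G1. PAP1 (MYB75), the best-known anthocyanin activator, was hit in list 2 only at 21.55, and RAX2 (MYB38), of axillary meristems, in list 2 only at 24.96. The other 7 were hit in neither list.

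Genes that MYB proteins regulate or act with were counted in the same way. Of 12 flavonoid and anthocyanin genes, 1 was hit in both lists, namely TT4, for chalcone synthase, with 39.48 in replicate 1 and 24.65 in replicate 2. TT7 and FLS1 were hit in list 2 only, and 9 genes in neither. Of 14 glucosinolate genes, 3 were hit in both lists, 2 in list 1 only and 1 in list 2 only. CYP79B2 scored 76.60 in replicate 1 and 49.05 in replicate 2, and CYP79B3 scored 76.55 and 58.11, and both make the first step of indole glucosinolates. MAM1, for chain elongation of methionine, scored 54.14 and 34.62. The other 8 were hit in neither list. Of 10 epidermal cell fate genes, which include MYB0 and MYB66, 1 was hit in both lists. It was GL2, a homeobox gene of trichomes and root hairs, with 72.46 and 29.87. Of the other epidermal genes, 1 was hit in list 1 only, 1 in list 2 only and 7 in neither list. These counts stand beside the background of 8.66% for both lists, 6.09% for list 1 only and 5.75% for list 2 only. No test was made on them.

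Other families of transcription factors with a number in the symbol were counted for comparison. Of 67 WRKY genes, 16 were hit in both lists (23.9%, exact 95% interval 14.3 to 35.9) and 13 in one list only (19.4%). Of 79 NAC genes, 5 were hit in both (6.33%, interval 2.09 to 14.2), 14 in list 1 only (17.7%) and 5 in list 2 only (6.33%). Over all protein-coding genes, 8.66% were hit in both lists and 11.8% in one list only. The latter share was made up of 6.09% in list 1 only and 5.75% in list 2 only. The MYB and NAC families had nearly the same share hit at all, 30.4% each, while it was 43.3% for the WRKY family and 20.5% for all protein-coding genes. Of the MYB genes, 10 were hit in list 1 only and 15 in list 2 only. These differences between families were not tested.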

How the data were processed

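SHL ChIP-seq peaks of 2 samples were used. The build is TAIR10 and the tools are MACS 1.4, SAMtools 1.3 and Bowtie2 2.2.8, per the submitters' processing notes; settings, filters and the control are not given in the sources used here. Each deposited peak carries the authors' own score, and depth cannot be read from it. The lists were not changed, apart from leaving out 10 and 7 non-nuclear peaks. Gene bodies came from the RefSeq table of assembly TAIR10.1, which gives no strand or exons; no coordinate of it is printed. Midpoints of 64.8% (list 1) and 63.4% (list 2) of peaks lay on protein-coding bodies, and of 36.9% and 35.3% after a shift of -1500 bp. The shares were 43.1% and 43.65% after -3000 bp, 36.0% and 35.8% after 1500 bp, and 41.4% and 42.0% after 3000 bp. The overlap code was tested on simulated data. Intervals are exact (Clopper-Pearson, SciPy 1.17.1). All 36 pathway genes and 102 of 110 listed subgroup genes were found. The members and lists were chosen with earlier results of these data known. Named were all MYB genes hit in both lists and the 5 highest-scoring of each list among those hit in it alone. Other-symbol MYB and pathway genes hit in both were named too. Most other names are values given by subgroup or marked where they appear. MYB79, MYB305, PAP1, RAX2, TT7 and FLS1 were named outside these rules. No test was made, since there are 2 lists and no control list.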

Additional observations from a re-analysis of the deposited data

How the results depend on the processing

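The 10 MYB genes hit in both lists became 8 with the body alone, 9 with peak midpoints inside the window, 10 with an overlap of at least 200 bp, 11 of 125 with synonyms included, and 9 without peaks whose midpoint lay on another gene alone (an alternative chosen after seeing the data). They became 16 with a flank of 2 kb, and 1, MYB102, with peaks scoring at least 50, at least 100 or among the 1000 highest of each list. Genes hit in both by peaks that overlap each other, 9 at first, became 16 with 2 kb and 1 with each score limit, and a reciprocal overlap of 50% left 6. Genes hit in one list only, 25 at first, fell to 1 with peaks of at least 50 and to 0 with at least 100 or the 1000 highest. At the main setting, 11.8% of all genes were hit in one list only and 8.07% in both lists by overlapping peaks. For these kinds of hit, shares of all genes under the other settings are not given here. The background share of 8.66% was 5.85% with the body alone, 11.7% with 2 kb, 3.74% at scores of at least 50, 2.71% at 100, 2.64% with the 1000 highest, 8.06% with 200 bp, 6.565% by midpoints and 5.77% without peaks centred on another gene alone. A count with 1 list alone drops the requirement of both. Without replicate 1, 25 MYB genes (21.7%) and 14.4% of all genes were hit. Without replicate 2 it was 20 MYB genes (17.4%) and 14.75% of all genes. Few MYB genes were thus hit at all once low scores were left out, but the share of all genes hit at all under those limits is not given here. The fall is therefore not read as a trait of the family. Read depth, which is not known, also limits what these lists can show. No paired analysis was possible because the input samples had no file.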
